A study of Gallus gallus with 4 samples.

Results

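PAX3, PAX7 and EYA2 are regulators of skeletal muscle precursors, and the peaks of the transcription factor c-Myc that were assigned to them are described here in chicken myoblasts and myotubes. The members are all peaks of the deposited lists whose nearest annotated gene is 1 of these 3 genes. They came to 22 of 20415 peaks, with 18 of the 19354 peaks of the myoblast list and 4 of the 1061 peaks of the myotube list. EYA2 held 11 myoblast and 3 myotube peaks, PAX7 held 4 and 1, and PAX3 held 3 and 0.

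PAX3 and PAX7 are paralogous transcription factors with a paired domain and a homeodomain. In the vertebrate embryo PAX3 marks the dermomyotome and the muscle precursors that migrate into the limb, and PAX7 marks muscle progenitors and, later, satellite cells, the stem cells of adult muscle. EYA2 is a coactivator with phosphatase activity that has no DNA-binding domain of its own and acts with homeodomain proteins such as SIX2. Together with PAX and DACH proteins they form a network that acts before and beside the myogenic determination factors MYF5 and MYOD1. c-Myc binds DNA together with MAX and is known for promoting growth and proliferation, whereas muscle cells leave the cell cycle as they fuse into myotubes.

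The cells were primary cultures from skeletal muscle of chicken embryos, at passage 1 in both states. Myoblasts were proliferating cells kept in RPMI-1640 with 15% fetal bovine serum, and myotubes were cells differentiated in RPMI-1640 with 2% horse serum, with antibiotics in both media. For each state chromatin was immunoprecipitated once with an anti-c-Myc antibody (abcam) and once with control IgG (bioss), giving 4 libraries without a replicate. Depth was 11.5M (1M is 1e6 tags) for c-Myc and 16.1M for IgG in myoblasts. In myotubes it was lower for c-Myc, at 8.65M, and higher for IgG, at 19.3M. Strain, day of development and number of embryos are not given in the labels, and a primary culture can hold cells other than muscle cells. Peaks carry no expression values, so the cell types could not be checked against marker genes and levels of PAX3, PAX7 or EYA2 RNA are not part of these data. Any difference between the states is one between single libraries, and no test between states was possible.

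Each peak carries the authors' peak score, which is the caller's own number of c-Myc tags in the peak per 10M tags of its library. Peaks were 200 bp wide in myoblasts and 154 bp in myotubes, so scores of the 2 lists are not on the same width. Tags given for single peaks are the deposited c-Myc and IgG tags over the peak without scaling, which were counted separately from the score and differ from it slightly for some peaks. Distances run from the centre of the peak to the annotated transcription start site (TSS), negative upstream, and positions are those of the authors' build galGal4. Intervals are exact 95% Poisson intervals of the tags and cover counting error only.

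At EYA2, a myoblast peak lay in the promoter, and this was the only member peak within 10 kb of the annotated TSS of its gene. It was centred at -417 bp, on chromosome 20 from 6011967 to 6012167, in the class that the annotation gives as promoter. It held 18.5 c-Myc tags (11.1 to 29.1) and 3.5 IgG tags (0.845 to 9.51), with a score of 16.1. That score was above 88.2% of all myoblast peaks and above 74.5% of the myoblast peaks within 1 kb of a TSS. Across the list, 22.0% of the 4832 gene names had a peak within 1 kb of the TSS in myoblasts and 1.37% in myotubes. Against these shares, 1 of the 3 members had one in myoblasts and 0 of 3 in myotubes, counts too small to set apart from the background.

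Inside EYA2 the myoblast list had 3 intron peaks, and the myotube list had 1. Intron 1 held myoblast peaks at 11.6 kb, from 6024014 to 6024214, with a score of 13.1 and 16 c-Myc tags against 1 IgG tag, and at 24.6 kb, from 6036969 to 6037169, with a score of 10.9 and 12.5 against 2.5 tags. The latter had the lowest score of the myoblast member peaks. The highest, 17, lay in intron 9 of 15, on chromosome 20 from 6085786 to 6085986 and 73.4 kb from the TSS, with 19 c-Myc tags (11.4 to 29.7) against 4 IgG tags (1.09 to 10.2). The intron peak of myotubes lay elsewhere, in intron 12, on chromosome 20 from 6097514 to 6097668. It had a score of 13.3 with 11.5 c-Myc tags (5.84 to 20.3) and 1.5 IgG tags, and its centre was 11.7 kb from the intron 9 peak of myoblasts.

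Outside EYA2, 7 myoblast peaks and 2 myotube peaks were intergenic. Upstream, the myoblast peaks lay at -66.8 kb, with a score of 11.8, and at -32.7 kb, with 12.2 and 15 c-Myc tags against 2 IgG tags. A myotube peak was centred at -33.1 kb, on chromosome 20 from 5979345 to 5979499, with a score of 12.7 with 11 c-Myc tags (5.49 to 19.7) and 3 IgG tags. It was centred 394 bp from the -32.7 kb peak of myoblasts, which ran from 5979716 to 5979916, and 217 bp separated their edges, so peaks of both states stood side by side without overlap. Downstream, myoblast peaks stood at 118.9, 129.5 and 142.3 kb, with scores of 14.8, 13.5 and 15.7. At 142.3 kb, on chromosome 20 from 6154729 to 6154929, the c-Myc tags numbered 16.5 and the IgG tags 0, and 0 tags leave up to 3.69 by the same interval. The remaining peaks were those at 201.1 kb in a CpG island (12.2) and at 348.8 kb (11.3) in myoblasts, and one at 93.1 kb in myotubes, from 6105532 to 6105686 (11.6, with 10.5 c-Myc and 3.5 IgG tags).

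Distance weakens the assignment of the outer peaks to EYA2. The next myoblast peaks assigned to other genes, C20H20ORF111 and STAU1, left a stretch of 497.3 kb to EYA2. In the newer assembly GRCg7b, used here for gene order only, 5 protein-coding genes stand between EYA2 and the first of these, which is named OSER1 there, and 6 between EYA2 and STAU1. The latter are ZMYND8, NCOA3, SULF2, PREX1, ARFGEF2 and CSE1L. None of the 4 nearest on either side is named in the peak lists, and none has a curated transcript in GRCg7b. Among the 4 nearest on either side of PAX3 and PAX7, every named gene has one and no unnamed gene does. Whether this kept genes out of the assignment was not tested, nor whether the outer peaks lie nearer to 1 of the neighbours of EYA2. Within 100 kb of its TSS, EYA2 kept 6 of 11 myoblast peaks and all 3 myotube peaks.

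**Figure D1:**
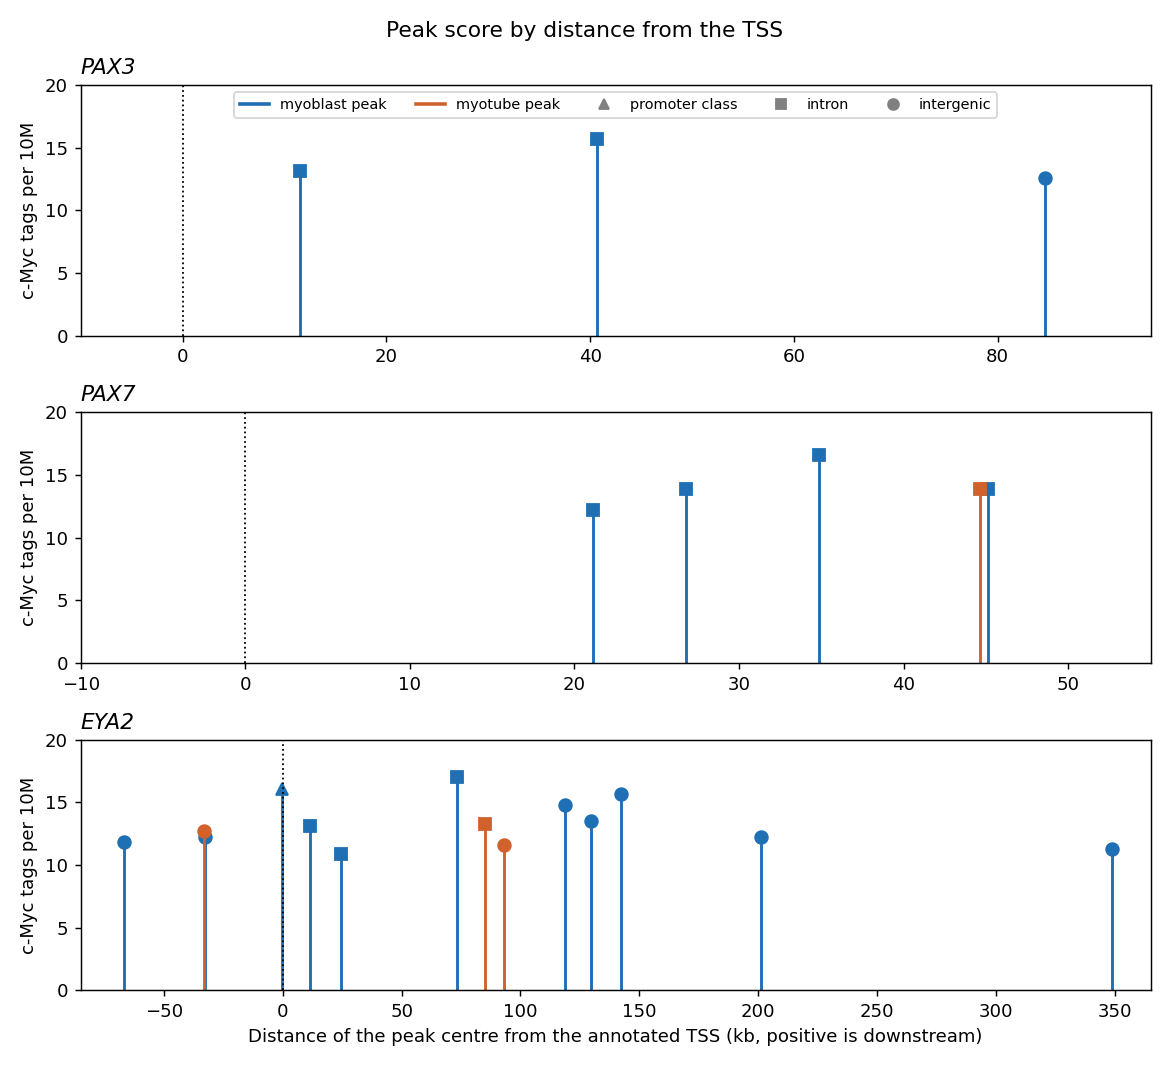
Score of each peak (c-Myc tags per 10M, vertical axis) against the distance of its centre from the annotated TSS (kb, horizontal axis, a different range per gene), for PAX3, PAX7 and EYA2. Blue lines are myoblast peaks and orange lines myotube peaks, the marker gives the annotation class and the dotted line is the TSS. All PAX3 and PAX7 peaks lie downstream of the TSS, EYA2 has a peak at -417 bp, and myotube peaks of EYA2 and PAX7 stand beside myoblast peaks at -33.1 and 44.6 kb.

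All PAX7 peaks lay inside the gene, in introns 5 and 6 of 10. The myoblast peaks in intron 5 were on chromosome 21, at 21.1 kb from the TSS with a score of 12.2, at 26.8 kb with 13.9 and at 34.9 kb with 16.6. The middle one, from 4469427 to 4469627, held 17 c-Myc tags (9.90 to 27.2) and 0 IgG tags, for which the interval reaches 3.69. The strongest, from 4477520 to 4477720, held 19 c-Myc tags (11.4 to 29.7) but also 5.5 IgG tags (1.91 to 12.4), the most IgG tags of any member peak. The first, from 4463749 to 4463949, held 12.5 c-Myc tags and 1 IgG tag.

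Intron 6 of PAX7 held a peak in each state. The myoblast peak, from 4487789 to 4487989, had a score of 13.9 with 16 c-Myc tags (9.15 to 26.0) and 5 IgG tags (1.62 to 11.7). The myotube peak, from 4487293 to 4487447, had the same score of 13.9 with 12 c-Myc tags (6.20 to 21.0) and 1 IgG tag (0.0253 to 5.57). Their centres were 519 bp apart and their edges 342 bp, so these peaks too did not overlap. Per 10M tags of the library, IgG came to 3.11 in myoblasts and 0.519 in myotubes at these places, on peaks of different width. The 4 myoblast peaks of PAX7 spanned 24.0 kb, with gaps of 5.68 to 10.3 kb between neighbours, and none lay within 20 kb of the TSS or upstream of it.

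PAX3 held peaks in myoblasts and none in myotubes. The 3 peaks lay downstream of the TSS of this gene, which is read from the minus strand of chromosome 9. The closest, at 11.5 kb in intron 3 of 7, ran from 7410977 to 7411177 and had a score of 13.1 with 15 c-Myc tags (8.40 to 24.7) and 4 IgG tags (1.09 to 10.2). The detailed annotation places it in a simple repeat of the unit CCA, and it was the only member peak in a repeat of this kind. The strongest, at 40.7 kb in intron 4, ran from 7381796 to 7381996 with a score of 15.7 with 18 c-Myc tags (10.7 to 28.4) and 5 IgG tags (1.62 to 11.7). The last was intergenic at 84.6 kb, from 7337886 to 7338086, with a score of 12.6 with 14.5 and 3 tags. The closest myotube peak of any gene was centred 947.4 kb from the first of these peaks and was assigned to SERPINE2.

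The authors' folds over IgG of the PAX3 peaks were 5.05, 5.26 and 5.81, all below the median of the myoblast list, 7.94, while those of PAX7 in myoblasts ran from 4.48 to 22.42 and those of EYA2 from 4.36 to 25.23. The deposited tags scaled for depth gave the same PAX3 peaks ratios of 5.05, 5.26 and 6.77. The folds of 22.42 at PAX7 and 25.23 at EYA2 belonged to peaks with 0 deposited IgG tags, which give no such ratio. At EYA2 the fold was 19.62 beside a ratio of 10.5 at -32.7 kb, and 4.36 beside 11.2 at 201.1 kb. The range at PAX7 and EYA2 therefore depends on whether the authors' folds or the deposited tags are used. Why the 2 differ was not tested, and the deposited IgG tags were few, at most 5.5 in a myoblast member peak. Summed over the peaks of a gene, c-Myc tags per 10M were 5.55 times the IgG tags per 10M at PAX3, 7.86 times at PAX7 and 9.36 times at EYA2 in myoblasts. These ratios rest on 12, 11.5 and 25 IgG tags and carry that counting error. In myotubes the ratio was 9.19 at EYA2, from 33 c-Myc and 8 IgG tags. For single myotube peaks the authors' fold was 13.37 at PAX7, and at EYA2 it was 7 upstream, 25.63 in intron 12 and 6.37 at 93.1 kb. PAX7 had a single myotube peak with 1 IgG tag, too few for a ratio of use. In all 22 peaks the c-Myc interval lay above the IgG interval per 10M tags, which calling against IgG selects for. The authors' caller gave the member peaks p-values against IgG from 1.76e-19 to 4.48e-05, which compare the reads of 2 libraries and not replicates.

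**Figure D2:**
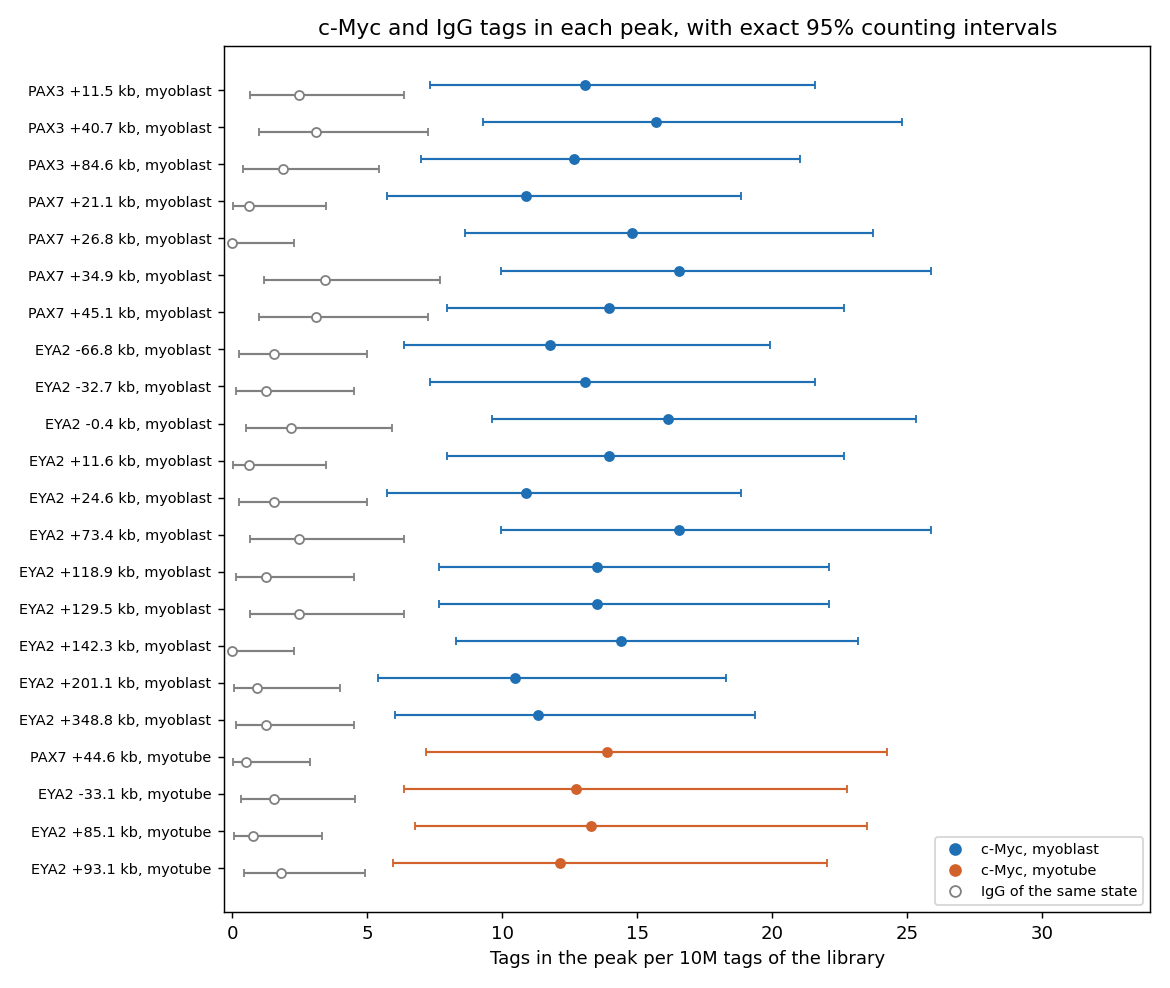
Tags in each member peak per 10M tags of the library (horizontal axis), for c-Myc (filled points, blue in myoblasts and orange in myotubes) and for IgG of the same state (open points), with exact 95% Poisson intervals as bars. Rows give the gene, the distance of the peak from the TSS and the state. In all 22 peaks the c-Myc point lies above the IgG point, and the c-Myc intervals of the myoblast peaks overlap one another between 9.97 and 18.3.

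Among the 3 genes the height of the peaks did not separate. Myoblast scores had a median of 13.9 at PAX7 (12.2 to 16.6, 4 peaks), 13.1 at PAX3 (12.6 to 15.7, 3 peaks) and 13.1 at EYA2 (10.9 to 17, 11 peaks), and the ranges overlapped for each pair of genes. In tags per 10M, the intervals of all 18 myoblast peaks shared the range from 9.97 to 18.3, and those of the 4 myotube peaks the range from 7.17 to 22.0, so at this depth no peak stood apart from another. Such overlap does not show that the peaks were equal. Set in their lists, 11 of the 18 myoblast peaks were above the median score of the list, 12.6, and 1 of the 4 myotube peaks was above its median of 13.3. The median of c-Myc tags was 15.5 in the member peaks and 14.5 in all myoblast peaks, and that of IgG tags was 2.5 in each.

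**Figure D3:**
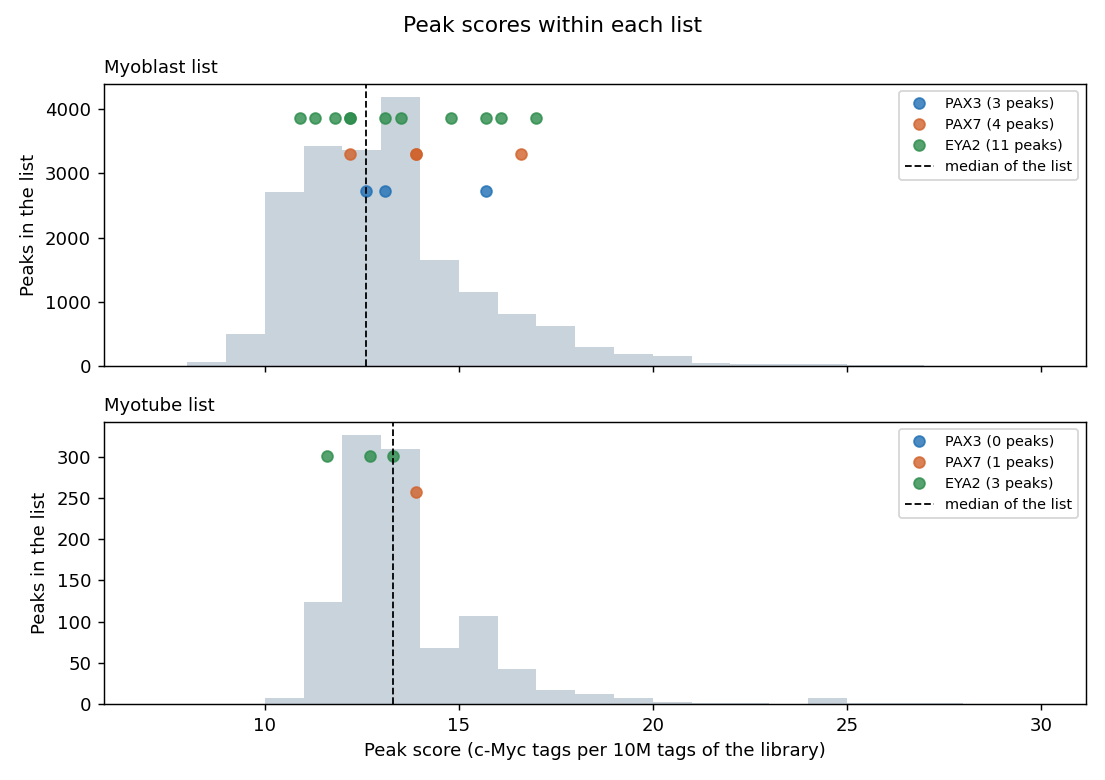
Number of peaks of each list (vertical axis) by peak score in c-Myc tags per 10M (horizontal axis, up to 30, leaving out 33 myoblast and 20 myotube peaks above it), with the member peaks drawn as points at arbitrary heights and the median of the list as a dashed line. The member peaks lie between 10.9 and 17 in myoblasts and between 11.6 and 13.9 in myotubes, in the bulk of each list.

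Most member peaks lay downstream of the TSS, and introns held more of them than of the list. Of the 18 myoblast peaks, 15 (83.3%) lay downstream of the TSS of their gene, against 51.2% of the whole list. Introns held 9 of the 18 (50%), and 13.6% of all myoblast peaks. A peak in an intron of its gene lies downstream of the TSS, so these 9 are among the 15 and the 2 shares are not separate observations. Most of the rest of the 15 were the EYA2 peaks from 118.9 to 348.8 kb, whose assignment is weakened by distance. Intergenic sequence held 8 (44.4%), against 77.1% in the list. These shares were not tested, because peaks of 1 gene share its length and surroundings and are not independent. In myotubes 2 of the 4 peaks were in introns and 2 intergenic. Of the member peaks, 1 in myoblasts lay in a CpG island, a share of 5.56%, beside 5.65% of the list.

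EYA2, with the most peaks, also had the longest stretch between the flanking myoblast peaks of other genes. Any peak was assigned in myoblasts to 98.6% of the gene names and in myotubes to 18.3%, and 3 and 2 of the members had one. With 11 myoblast peaks, EYA2 was among the 6.62% of gene names with as many or more, PAX7 with 4 among 39.3% and PAX3 with 3 among 52.8%. Between the flanking peaks of other genes, EYA2 had 497.3 kb, PAX3 252.3 kb and PAX7 150.0 kb. Per 100 kb of these stretches that made 2.21 myoblast peaks at EYA2, 2.67 at PAX7 and 1.19 at PAX3. Their chromosomes held 2.04 (chromosome 20), 3.02 (chromosome 21) and 2.44 (chromosome 9) per 100 kb up to the last peak. EYA2 and PAX7 were thus close to the density of their chromosomes, and PAX3 had a lower value that rests on 3 peaks. The flanking peaks set the length of a stretch but are not counted, which lowers these values, most where peaks are few.

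In myotubes EYA2 had 3 peaks, a number reached by 27 gene names (0.559%). Per 100 kb this was 0.603 at EYA2 against 0.225 on chromosome 20, and the single PAX7 peak made 0.667 against 0.281 on chromosome 21. These values rest on 3 peaks and 1 peak, too few to set apart from the densities of the chromosomes. At PAX3 the value was 0, with 0.166 on chromosome 9, a density at which a stretch of 252.3 kb holds fewer than 1 peak. The absence of a listed peak in myotubes does not show an absence of binding. The caller score is a second value of the caller for each peak, and differs from the tag count behind the peak score. The lowest caller score in myotubes was 11. Scaled in proportion to depth and peak width, it corresponds to a caller score of 18.9 in myoblasts. That the caller score grows in proportion to depth and width is an assumption. Scaling for depth alone gives a lower value that more member peaks reach. Of the 18 member peaks 1 reached 18.9, the EYA2 peak at 118.9 kb with a caller score of 19, and in the whole myoblast list 4.12% of peaks did.

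An overlap with a myoblast peak was found for 0 of the 4 myotube peaks and for 6.97% of all myotube peaks. A myoblast peak was centred within 1 kb of 2 of the 4 and of 13.2% of the whole list. With 4 peaks, these counts are too small to set apart from the shares of the list. The 2 are the pairs at -33 kb of EYA2 and in intron 6 of PAX7. The remaining myotube peaks of EYA2 were 11.7 and 19.7 kb from the closest myoblast peak, and the median over the list was 11.0 kb. The myoblast peaks of both pairs were under the caller score of 18.9 named above, at 12 for EYA2 and 13 for PAX7.

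**Figure D4:**
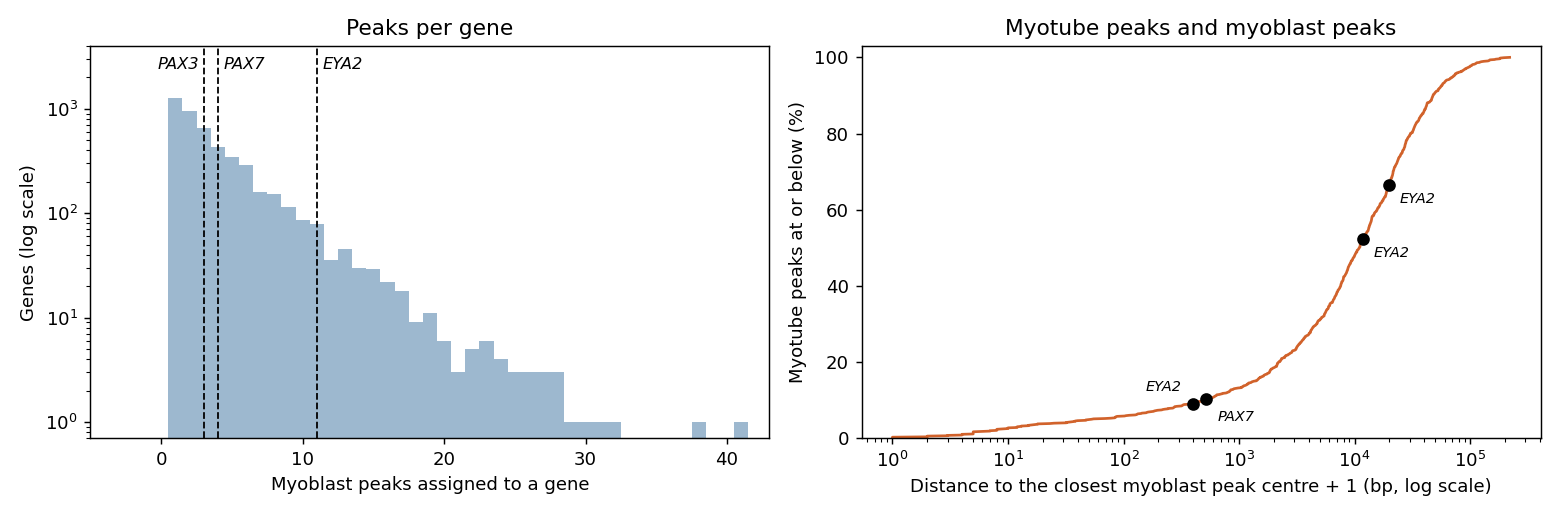
Left, number of gene names (log scale) by the number of myoblast peaks assigned to them, with dashed lines at PAX3 (3), PAX7 (4) and EYA2 (11). Right, share of myotube peaks (%) at or below a given distance from the closest myoblast peak centre (bp plus 1, log scale), with the 4 member peaks as points. The PAX7 peak and 1 EYA2 peak lie below the median of 11.0 kb, at 519 and 394 bp. The other EYA2 peaks lie above it, at 11.7 and 19.7 kb.

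Most other genes of the network also had no peak within 1 kb of the TSS. Of 34 entries in 3 lists, 20 were named in the peak lists, and all 20 had a myoblast peak, beside 98.6% of all gene names, a share that follows largely from being named in the lists. Within 1 kb of the TSS, 1 of the 20 had a myoblast peak, beside 22.0% of all gene names, and 0 had a myotube peak. The 1 was SIX2, a homeodomain factor of the kind that EYA proteins bind, at 171 bp with a score of 13.5 with 16 c-Myc tags and 1 IgG tag. Any myotube peak was assigned to 2 of the 20, SIX2 and PAX6, an eye and brain regulator, beside 18.3% of gene names. That of SIX2 lay at -255563 bp with a score of 11.0, far from its myoblast promoter peak. These counts were not tested, and the lists are small.

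Among partners of EYA2, 6 of 10 entries were named. The closest peaks of SIX6 and SIX3 lay 3.57 and 7.29 kb away, while those of DACH2 and DACH1, which encode nuclear cofactors of the network, lay 10.3 and 40.2 kb away.

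Among the PAX family, 4 of 6 entries were named, and their closest myoblast peaks lay between 9.59 kb (PAX5, a B-cell factor) and 83.4 kb (PAX2, a kidney regulator). PAX9 had 8 myoblast peaks and PAX6 had 3, with a myotube peak of PAX6 at -6778 bp and a score of 14.4. No PAX gene named in the peak lists, PAX3 and PAX7 included, had a peak within 1 kb of its TSS in either state. Of all gene names 22.0% had one in myoblasts and 1.37% in myotubes, and the PAX genes are too few to set apart from these shares. Of dermomyotome and limb precursor genes 10 of 18 entries were named, 1 of the other entries being a second name of TCF15. The closest peak was at 1.18 kb for NOTCH1 (13.1, with 5 IgG tags), in the annotation class promoter but outside the 1 kb window. Next was that of TCF15 at -2434 bp (18.7, with 21.5 c-Myc and 5 IgG tags). TCF15 encodes paraxis, a factor of somite formation. MEOX1, a somite homeobox gene, followed at 2.71 kb (11.8), and 0 of the 10 had a myotube peak, beside 18.3% of all gene names, too few genes to set apart from that share.

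The genes whose pattern was most like that of each member were those with the same number of peaks in both states and the closest distance of the nearest myoblast peak to the TSS. For PAX3, 550 gene names had 3 and 0 peaks, and the nearest were RPL35, a ribosomal protein gene, at 11.5 kb, LOC769134 and FAM214A. For PAX7, 55 had 4 and 1 peaks, led by the microRNA gene MIR100 at 21.3 kb, GORASP2, a Golgi protein gene, at 20.3 kb and FKBP4, an immunophilin gene, at 20.1 kb. For EYA2 a single name had 11 and 3 peaks, the microRNA gene MIR1617, with its closest peak at 1.78 kb. The likeness rests on 2 lists and 1 distance.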

How the data were processed

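Chromatin immunoprecipitation sequencing was done once with each antibody in each of the cell states. The submitters' processing notes name CASAVA 1.8.2, Trimmomatic 0.30, FastQC 0.10.1, Bowtie2 2.1.0 and HOMER 4.6 with build galGal4, without roles or options. Peaks were called for c-Myc against IgG of the same state and annotated with annotatePeaks.pl, per the file headers. The deposited peak score equals the c-Myc tags counted by the caller per 10M tags of the library within 0.05 (scores under 100). The deposited signal columns hold unscaled tags over the peak, for c-Myc and for IgG, in steps of 0.5. The fold over IgG, the fold over the local region and the p-value are the authors' own, and every listed peak has both folds at 4 or above. The authors' fold differed by over 1.5 times from the ratio of the tag columns scaled for depth in 4 member peaks, in both directions. For 2 more, with 0 IgG tags, there was no such ratio.

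From these lists the member peaks were taken by gene name and compared with all peaks and all 4832 gene names, with Python 3.11.15, numpy 2.4.6, pandas 2.3.3, scipy 1.17.1 and matplotlib 3.10.9. Overlap meant at least 1 bp, and a promoter peak lay within 1 kb of the TSS. TSS positions and strands were derived from the deposited distances. Without replicates no test between states was made. The counts of overlapping peaks and of peaks centred within 1 kb of each other were checked on simulated data. Named peaks were those of the myotube list, those inside a gene, the 3 with the highest score and the closest to the TSS. The members and the gene lists were chosen with earlier results of these data known. No sequence under the peaks was used here. Values of 1 gene of the lists are not reported here.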

Additional observations from a re-analysis of the deposited data

How the results depend on the processing

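Of 65 alternative values, 44 kept the direction and stayed within the limits set for each, 12 counts were lower by over 1.5 times, 2 were higher and 7 other values moved. Some of the 44 could not have changed, such as filters on a count of 0, and most of the 7 were a change of unit. The tally is therefore no measure of stability. Myoblast peaks fell to 0 at PAX3 (from 3) with the authors' fold over IgG at 6 or above, while PAX7 and EYA2 held 3 and 8. The median fold of the whole myoblast list was 7.94, so at least 50% of its peaks passed this filter. The 3 peaks of PAX3 are too few to set apart from that share. With the myoblast list shortened by score to the length of the myotube list, all 3 genes had 0, the promoter peak of EYA2 included. That list kept 1061 of 19354 peaks, a share at which 18 member peaks are too few to set 0 apart. With the myoblast caller score matched to the myotube list by depth and peak width, PAX3 had 0, PAX7 0 and EYA2 1, and 4.12% of the whole myoblast list was kept. A promoter peak was then left in 0 genes. This alternative was chosen after seeing the data, and matching by depth alone would remove fewer peaks. In the upper 50% by score EYA2 had 6 myoblast peaks and 1 myotube peak, and within 100 kb it had 6 myoblast peaks. The promoter peak of EYA2 remained at the stricter fold and in the upper 50% by score. It also remained with the narrower and both wider promoter windows and without repeats, which could not remove a peak at -417 bp outside repeats. The myotube count was 0 in each of these, and only the wider windows could have raised it. The count of myotube peaks beside a myoblast peak was 2 of 4 with centres within 1 kb and 2 within 10 kb, against 0 that overlapped. Over the whole myotube list these shares were 13.2%, 48.0% and 6.97%, and 4 peaks are too few to set apart from them. Per kb of peak, median scores were 65.5 at PAX3, 69.5 at PAX7 and 65.5 at EYA2 in myoblasts, and 90.3 at PAX7 and 82.5 at EYA2 in myotubes, a change of unit. In the upper 50% by score the closest peak moved to 26.8 kb at PAX7 in myoblasts and to 85.1 kb at EYA2 in myotubes. The stricter fold left PAX3 no peak, so it gave no median or distance there. Depth limits all values: a member peak held 10.5 to 19 c-Myc tags. No paired analysis was possible because each state had 1 library per antibody.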
